A study of Mus musculus with 6 samples.

Results

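The genes of the major histocompatibility complex (H2 in the mouse) and the genes that load its molecules were compared between hearts of wild type (WT) and TG-PKR1 mice. Members were all non-control array probes whose gene name starts with H2-, or is B2m, Cd74, Tap1, Tap2, Tapbp, Psmb8, Psmb9, Cd1d1 or Ciita. This gave 70 probes of 45 genes among 41174 non-control probes, and 48 of them, from 30 genes, were among the 20000 brightest probes that entered the test. Of the 70 probes, 41 of 25 genes belonged to class I with B2m, 19 of 12 genes to class II and its loading, and 10 to antigen processing, Cd1d1 and a pair of H2-named genes outside both families.

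The study compared 3 WT hearts with 3 hearts of mice that overexpress prokineticin receptor 1 (PKR1), a G protein-coupled receptor, in cardiomyocytes under the alpha myosin heavy chain promoter. All mice were male and 12 weeks old, the methods give a C57BL6/J background for the study's mice, each heart was a separate animal, and its total RNA was labelled with Cy3 and hybridised to 1 single-dye Agilent array. Hearts are called WT 1 to 3 and TG 1 to 3, and the numbers pair no hearts. Values are normalised log2 intensities, and a difference is TG minus WT on that scale with the SE of the limma fit.

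Class I molecules are heavy chains held together by beta-2 microglobulin, and they show peptides from inside the cell to CD8 T cells and natural killer cells. The immunoproteasome cuts these peptides, the TAP transporter moves them into the endoplasmic reticulum, and tapasin helps to load them. Class II molecules are pairs of an alpha and a beta chain on dendritic cells, macrophages and B cells. The invariant chain Cd74 guards their groove until H2-DM exchanges its last fragment for a peptide, and Ciita switches the class II genes on. In the heart, class II is known mainly from resident immune cells, while class I is made by most cell types.

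The heart label was checked against cardiomyocyte markers, whose mean level over 11 probes of 6 genes was 13.51 to 14.00 in WT and 13.67 to 14.19 in TG hearts. The single Prokr1 probe was not well above background on any array (5.84 to 5.96 in WT and 5.86 to 6.13 in TG hearts), so it gave no check of the genotype. Between 19650 and 24923 probes per array were well above background. The file headers mark all 6 arrays as extended-range extractions, but the recorded slope of the low-gain scan was 8.57 to 8.73 for WT 1, TG 2 and TG 3 (high-slope arrays) and 1 for WT 2, WT 3 and TG 1 (unit-slope arrays). The 2 kinds of array were inferred from that slope, and no label or header names them as a batch. One slide held both WT 2 and TG 1. Values within each kind of array and within that slide are given after the members.

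Promoter windows came from a table of RefSeq starts (GRCm38.p6), in which 33 of the 45 member genes were matched. Windows of Cd1d1 and Cd74 were not used here. Each window ran from 250 bases before to 50 bases after the start of a gene, and the first listed start was used. The 6 windows below belong to a classical class I gene, the class I gene with the largest difference in these hearts, the class I light chain, the peptide transporter, and a chain and a loading gene of class II. Capitals mark matches, on either strand, to GAANNGAAA (a pair of GAA repeats as in interferon-response elements), GGGNNTTCC (NF-kappaB-like), ATTGG (an inverted CCAAT, the Y box of class II promoters) and TGACG (the core of the X2 box and of cAMP-response elements).
H2-K1, chr17:34000298-34000597, minus strand: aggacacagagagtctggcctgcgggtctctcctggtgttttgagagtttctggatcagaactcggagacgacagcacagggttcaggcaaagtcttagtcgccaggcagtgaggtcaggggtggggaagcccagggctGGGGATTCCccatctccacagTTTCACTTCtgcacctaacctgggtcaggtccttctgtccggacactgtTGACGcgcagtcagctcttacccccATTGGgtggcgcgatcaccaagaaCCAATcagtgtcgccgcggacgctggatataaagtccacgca
H2-Q10, chr17:35469839-35470138, plus strand: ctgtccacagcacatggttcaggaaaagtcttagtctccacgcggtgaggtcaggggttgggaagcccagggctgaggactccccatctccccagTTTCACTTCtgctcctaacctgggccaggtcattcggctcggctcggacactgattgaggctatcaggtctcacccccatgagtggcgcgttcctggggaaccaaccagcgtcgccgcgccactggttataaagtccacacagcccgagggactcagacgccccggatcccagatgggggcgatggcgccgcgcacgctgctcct
B2m, chr2:122147437-122147736, plus strand: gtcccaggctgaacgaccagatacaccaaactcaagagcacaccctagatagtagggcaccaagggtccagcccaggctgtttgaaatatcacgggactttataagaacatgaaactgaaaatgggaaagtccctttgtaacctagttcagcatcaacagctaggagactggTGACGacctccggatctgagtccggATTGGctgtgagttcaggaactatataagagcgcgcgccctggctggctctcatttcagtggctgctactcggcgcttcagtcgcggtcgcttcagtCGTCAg
Tap1, chr17:34187306-34187605, plus strand: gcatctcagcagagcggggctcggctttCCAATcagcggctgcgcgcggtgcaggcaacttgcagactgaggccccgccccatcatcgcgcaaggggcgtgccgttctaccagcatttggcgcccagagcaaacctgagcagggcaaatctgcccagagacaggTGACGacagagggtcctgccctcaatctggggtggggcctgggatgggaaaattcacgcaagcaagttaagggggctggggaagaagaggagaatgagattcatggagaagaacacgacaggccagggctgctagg
H2-Aa, chr17:34287774-34288073, minus strand: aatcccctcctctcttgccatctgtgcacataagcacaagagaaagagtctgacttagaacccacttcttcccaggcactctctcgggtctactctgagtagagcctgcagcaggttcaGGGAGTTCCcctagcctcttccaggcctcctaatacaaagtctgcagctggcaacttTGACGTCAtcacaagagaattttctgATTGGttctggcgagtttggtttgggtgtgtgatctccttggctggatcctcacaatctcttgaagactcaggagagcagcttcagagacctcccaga
H2-DMb1, chr17:34152941-34153240, plus strand: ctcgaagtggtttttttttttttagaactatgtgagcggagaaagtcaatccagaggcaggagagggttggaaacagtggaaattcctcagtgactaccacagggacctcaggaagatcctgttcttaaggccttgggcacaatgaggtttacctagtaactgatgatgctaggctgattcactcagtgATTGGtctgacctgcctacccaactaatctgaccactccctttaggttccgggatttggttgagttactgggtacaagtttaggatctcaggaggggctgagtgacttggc

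ATTGG was found in 28 of the 33 member windows and in 37.9% of 27025 windows of the same length, 1 per gene. The 28 include H2-M1, H2-M3, H2-M9, H2-M11 and H2-M10.1 to H2-M10.6. Related genes were each counted, so the member windows are not independent. TGACG was found in 14 member windows, GAANNGAAA in 5 and GGGNNTTCC in 5, against 21.0%, 7.56% and 5.72% of all windows. In H2-K1, GGGNNTTCC, GAANNGAAA, TGACG and ATTGG followed each other within bases -111 to -12 from the start. The H2-Q10 window held only the interferon-type match, at bases -155 to -147, and no ATTGG or TGACG, which says only that these letters are not in that window. Positions count from the listed starts. The run tataaagtccac lay after that start in H2-K1 and before it in H2-Q10, so positions in these windows do not line up. In B2m, TGACG (bases -78 to -74) stood before ATTGG (bases -53 to -49). H2-Aa had the same order, with TGACG on both strands from base -74 to -67 and ATTGG at bases -48 to -44. The Tap1 window overlapped that of Psmb9 on the other strand by 275 bases, and their starts lay 226 bases apart. These matches describe letters in the windows and were not tested for binding.

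No member probe passed the test in either direction (limma, Benjamini-Hochberg over 20000 probes, threshold 0.05), where 19 of all probes tested, 0.095%, were lower and 0% were higher in TG hearts. The smallest adjusted p of a member was 0.14, for H2-Q10. At an unadjusted p under 0.05, 5 member probes were lower and 0 higher in TG hearts, against 1.66% and 0.715% of all probes. SAM, the test of the study's methods, called 1 member probe, the same H2-Q10 probe, lower in TG hearts. Over all 19955 complete probes it called 0.271% lower and 0% higher.

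In 6 of the 48 tested member probes every TG heart lay below every WT heart, and in 0 every TG heart lay above. Such separation was seen in 2.73% of 19955 complete probes downward and in 2.68% upward. The 6 probes belong to H2-Q10 (2 probes), Cd1d1, Cd74, H2-DMb1 and H2-K1. The median difference over the 48 probes was -0.04, beside 0.03 over all 20000.

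**Figure D1:**
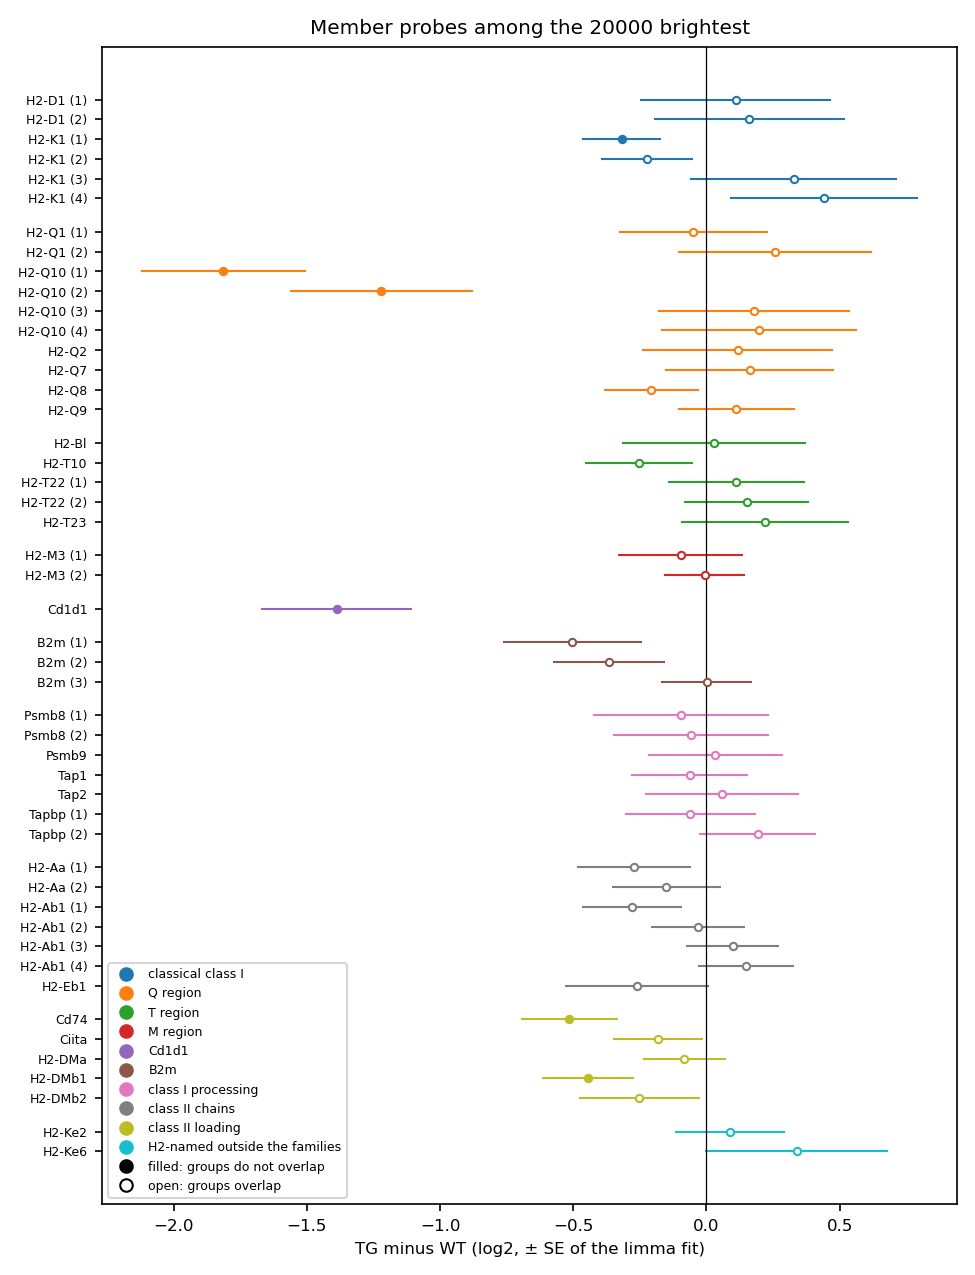
TG minus WT difference (log2, horizontal axis) of the 48 member probes among the 20000 brightest, with the SE of the limma fit. Probes are grouped by role and numbered within a gene from the lowest difference up, and filled points mark the 6 probes whose groups did not overlap, from -1.81 (H2-Q10) to -0.32 (H2-K1).

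The classical class I genes H2-K1 and H2-D1 present peptide on nearly all nucleated cells. Their 6 probes had a median difference of 0.14, with 2 lower and 4 higher in TG hearts. H2-K1 was measured by 4 probes on chromosome 17 (minus strand, mm8), and these did not move alike.

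The probe at chr17:33606572-33606626, called probe a, read 13.03, 13.19 and 12.97 in WT 1 to 3 and 12.77, 12.85 and 12.61 in TG 1 to 3. The TG hearts lay below the WT hearts without overlap, by -0.32 (SE 0.15, adjusted p = 1.0, limma). Probe b, at chr17:33606564-33606623, overlaps probe a in position and read 14.43, 14.37 and 13.98 in WT and 14.10, 14.13 and 13.89 in TG hearts. Its difference was -0.22 (SE 0.17), and the groups overlapped.

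The other H2-K1 probes lie upstream in the gene. Probe c (chr17:33609797-33609856) read 11.62, 10.82 and 10.21 in WT and 11.64, 10.85 and 11.48 in TG hearts, a difference of 0.44 (SE 0.35), the largest upward one of any member. Probe d (chr17:33609987-33610233) differed by 0.33 (SE 0.39). In both, WT 1 and TG 1 were the highest hearts and WT 3 was the lowest, so that the spread within a genotype exceeded the difference between them.

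H2-D1 was equally uneven between hearts. Its probe of higher signal, whose accessions also name H2-Q2, read 14.01, 13.31 and 12.80 in WT and 14.15, 12.99 and 13.47 in TG hearts. WT 1 and TG 1 were again the highest and WT 3 the lowest, and the difference was 0.16 (SE 0.36).

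The Q region encodes non-classical class I molecules, among them the Qa-2 antigen (H2-Q7 and H2-Q9) and H2-Q10, a secreted class I molecule known mainly from liver. All 6 genes had a probe among the 20000, and 4 of their 10 probes were lower and 6 higher in TG hearts. The largest difference of any member was that of a H2-Q10 probe.

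H2-Q10 probe 1 (chr17:35082473-35082532, plus strand, mm8) read 9.43, 8.31 and 9.25 in WT hearts and 7.42, 7.36 and 6.76 in TG hearts. Every TG heart was below the lowest WT heart, WT 2. The difference was -1.81 (SE 0.31, unadjusted p = 0.00030, adjusted p = 0.14, limma), a 3.51-fold lower level. It passed the threshold when WT 2 was left out (difference -2.16, adjusted p = 0.039, limma) and under SAM. It did not pass when any other heart was left out (adjusted p from 0.20 to 0.74, limma). Nor did it pass with the kind of array as a block (-1.86, adjusted p = 0.41, limma) or in the log2 values of the authors (-1.44).

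H2-Q10 probe 2 (chr17:35081576-35081635) read 8.46, 6.98 and 7.81 in WT and 6.86, 6.48 and 6.25 in TG hearts. The highest TG heart, TG 1, lay just below the lowest WT heart, WT 2. The difference was -1.22 (SE 0.34, unadjusted p = 0.0070, adjusted p = 1.0, limma), 2.33-fold lower. Its size varied with the processing, from -1.93 with the processed signal to -0.88 with normexp and quantile scaling. For probe 1 these values were -2.44 and -1.45.

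The other 2 probes that carry the name H2-Q10 did not show this. Probe 3 (chr17:35079015-35079074) read 10.92, 10.19 and 9.46 in WT and 10.86, 10.06 and 10.19 in TG hearts, a difference of 0.18 (SE 0.36). Probe 4 (chr17:35081318-35081377), whose accessions name H2-D1, H2-Q1, H2-Q10 and H2-Q6 together, read 13.54, 12.55 and 12.17 in WT and 13.46, 12.45 and 12.94 in TG hearts, a difference of 0.20 (SE 0.37). Both had WT 1 and TG 1 highest and WT 3 lowest, the order seen in H2-D1. The H2 class I genes are close copies of each other, so a probe may read several of them, and the level of H2-Q10 itself is uncertain. A probe named H2-Q9 at chr17:35081885-35081944, between probes 2 and 1, differed by 0.11 (SE 0.22).

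The remaining Q genes ranged from -0.21 (H2-Q8) to 0.26 (H2-Q1). That H2-Q1 probe also names H2-Q2 in its accessions. Another H2-Q1 probe differed by -0.05 (SE 0.28), and a further one was not well above background on any array. H2-Q2 read 13.53, 12.58 and 12.33 in WT and 13.46, 12.36 and 12.97 in TG hearts. Its difference was 0.12 (SE 0.36), and that of H2-Q7 was 0.16 (SE 0.32). The groups overlapped in all of these.

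In the T region, H2-T23 encodes Qa-1, a ligand of an inhibitory receptor on natural killer cells. It read 13.30, 12.30 and 12.29 in WT and 13.24, 12.39 and 12.92 in TG hearts. WT 1 and TG 1 were the highest hearts, and the difference was 0.22 (SE 0.32). H2-T10, which with H2-T22 can be bound by some gamma delta T cells, had the largest difference of the region. It read 11.77, 11.27 and 11.25 in WT and 11.06, 11.47 and 11.00 in TG hearts, -0.25 (SE 0.20), and TG 2 lay among the WT hearts. The H2-T10 probe also names H2-T22 in its accessions, and the 2 probes of H2-T22 alone differed by 0.11 (SE 0.26) and 0.15 (SE 0.23). H2-Bl had 1 probe among the 20000, which read 7.97 to 9.35 over the hearts and differed by 0.03 (SE 0.35). Its other probes lay between 5.75 and 6.03 and were not well above background on any array.

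The M region was represented by H2-M3, which presents formylated peptides. Its probe of higher signal read 8.67, 9.03 and 8.60 in WT and 8.41, 9.16 and 8.44 in TG hearts. WT 2 and TG 2 were the highest hearts, and the difference was -0.10 (SE 0.23). The other H2-M3 probe differed by -0.01 (SE 0.15).

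Cd1d1 lies outside the complex, on chromosome 3, and encodes the class I-like molecule that presents lipids to natural killer T cells. Its probe (chr3:87081796-87081855, minus strand, mm8) read 10.95, 11.02 and 10.27 in WT and 9.22, 9.89 and 8.97 in TG hearts. The highest TG heart was below the lowest WT heart. The difference was -1.39 (SE 0.28, unadjusted p = 0.0010, adjusted p = 0.32, limma), a 2.62-fold lower level, and it did not pass the test across all probes. Its near copy Cd1d2 was well above background on 2 arrays only.

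The light chain B2m was measured by 3 probes on chromosome 2 (plus strand, mm8). The probe at chr2:121844230-121844286 read 11.93, 12.33 and 11.99 in WT and 11.59, 12.09 and 11.05 in TG hearts, a difference of -0.50 (SE 0.26). The probe at chr2:121844106-121844165 read 12.23, 11.91 and 12.72 in WT and 11.97, 11.90 and 11.89 in TG hearts, a difference of -0.37 (SE 0.21). In the first, TG 2 lay among the WT hearts, and in the second, TG 1 lay above WT 2. The probe further upstream, at chr2:121840304-121840363, read 7.46, 6.97 and 7.17 in WT and 7.22, 7.08 and 7.31 in TG hearts and differed by 0.00 (SE 0.17).

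The genes that make and load class I peptides differed little between the genotypes. Their 7 probes had a median difference of -0.06, from -0.09 (Psmb8) to 0.19 (Tapbp), with 0 probes under an unadjusted p of 0.05. The immunoproteasome subunit Psmb8 read 10.53, 9.31 and 10.21 in WT and 10.34, 9.49 and 9.94 in TG hearts at 1 probe (-0.09, SE 0.33), and 10.39, 9.27 and 9.77 in WT and 10.14, 9.48 and 9.64 in TG hearts at the other (-0.06, SE 0.29). The subunit Psmb9 read 10.37, 9.44 and 9.95 in WT and 10.13, 9.63 and 10.11 in TG hearts, a difference of 0.03 (SE 0.25). At all 3 of these probes WT 2 and TG 2 were the lowest hearts.

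Tap1, a chain of the peptide transporter that shares its promoter window with Psmb9, read 7.63, 7.07 and 7.34 in WT and 7.59, 6.92 and 7.35 in TG hearts. It followed the same order of hearts as Psmb9 in having WT 1 highest and WT 2 and TG 2 lowest, with a difference of -0.06 (SE 0.22). Its partner Tap2 differed by 0.06 (SE 0.29). Tapbp, tapasin, read 12.30, 11.47 and 11.60 in WT and 12.04, 11.52 and 11.62 in TG hearts at 1 probe, -0.06 (SE 0.25). At the other it read 8.69, 8.63 and 8.05 in WT and 8.82, 8.77 and 8.35 in TG hearts, 0.19 (SE 0.22), with WT 3 and TG 3 lowest.

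Of 15 probes of 10 further genes of class I processing and control, 0 had an unadjusted p under 0.05, and their median was -0.03. The largest differences were those of 1 of 3 probes of Canx (calnexin, a chaperone of new heavy chains), 0.41 (SE 0.29, the other Canx probes -0.02 and 0.02), and Pdia3 (a thiol oxidoreductase of the loading complex), -0.26 (SE 0.21). The 30 probes of 23 interferon response genes had a median of -0.01, and 0 of them passed an unadjusted p of 0.05. The 6 probes of 4 class I-like genes outside the members had a median of 0.06.

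Class II members were more often lower than higher in TG hearts, 10 of 12 probes, with a median difference of -0.22, and none passed the test. Over all 20000 probes, 41.8% were lower. The class II median rested largely on WT 1, which was the highest heart in 8 of the 12 probes, and it was -0.05 without that heart. The chains that present peptide gave 7 probes. H2-Ab1, the beta chain of I-A, read, at chr17:33877309-33877368 (plus strand, mm8), 11.68, 11.19 and 11.39 in WT and 11.24, 10.89 and 11.29 in TG hearts. The groups overlapped, and the difference of -0.28 (SE 0.19) was the largest among the chains. The 3 other H2-Ab1 probes differed by -0.03 to 0.15.

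H2-Aa, the alpha chain of I-A, differed by -0.27 (SE 0.22) and -0.15 (SE 0.20) at its 2 probes. H2-Eb1, the beta chain of I-E, differed by -0.26 (SE 0.27). H2-Ea, the alpha chain of I-E, was not well above background on any of the 6 arrays (5.75 to 6.06 in WT and 5.72 to 5.80 in TG hearts). The H2-b haplotype of C57BL/6 mice is known not to transcribe H2-Ea.

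The 5 probes of the loading and control genes were all lower in TG hearts, with a median of -0.25. Cd74, the invariant chain, read 11.59, 11.09 and 11.20 in WT and 10.96, 10.61 and 10.76 in TG hearts (chr18:60937790-60937847, plus strand, mm8). Every TG heart was below every WT heart, although TG 1 and WT 2 lay only a little apart. The difference was -0.51 (SE 0.18, unadjusted p = 0.021, adjusted p = 1.0, limma).

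H2-DMb1, the beta chain of the peptide editor H2-DM, read 9.45, 9.19 and 9.35 in WT and 8.64, 9.13 and 8.89 in TG hearts (chr17:33767055-33767114, plus strand, mm8). The groups did not overlap, with TG 2 just below WT 2, and the difference was -0.44 (SE 0.17, unadjusted p = 0.031, adjusted p = 1.0, limma). The alpha chain H2-DMa differed by -0.08 (SE 0.16) and the second beta chain H2-DMb2, whose probe also names H2-DMb1, by -0.25 (SE 0.23). Ciita read 7.08, 6.64 and 6.69 in WT and 6.74, 6.52 and 6.61 in TG hearts and differed by -0.18 (SE 0.17).

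Of 15 probes of 12 genes that control or process class II outside the members, 1 had an unadjusted p under 0.05. This was Ctss (cathepsin S, the protease that trims Cd74), with 11.52, 11.65 and 11.59 in WT and 11.25, 11.02 and 11.04 in TG hearts. The TG hearts were all lower, by -0.48 (SE 0.14, unadjusted p = 0.0095, adjusted p = 1.0, limma). The median of the 15 probes was 0.00.

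**Figure D2:**
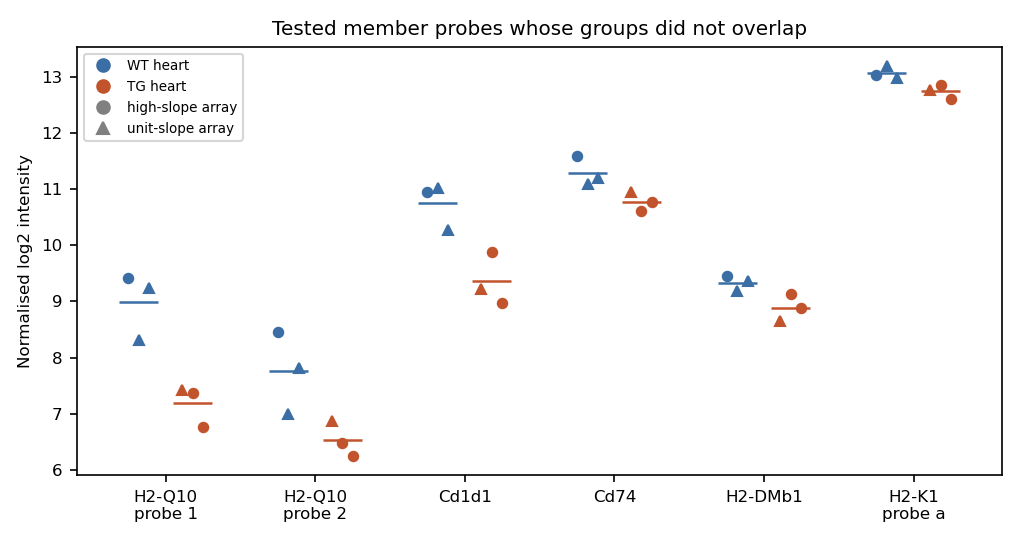
Normalised log2 intensity of each heart for the 6 of 48 tested member probes whose groups did not overlap, with horizontal lines for group means and the marker shape for the kind of array. The gap between the groups is widest for Cd1d1 and H2-Q10 probe 1 and narrow for H2-DMb1, where TG 2 (9.13) lies just below WT 2 (9.19).

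The 2 H2-named genes outside both families, which encode a prefoldin subunit (H2-Ke2, now Pfdn6) and a dehydrogenase (H2-Ke6), differed by 0.09 (SE 0.21) and 0.34 (SE 0.34). For H2-Ke2 the hearts read 11.91, 11.29 and 11.84 in WT and 11.97, 11.55 and 11.78 in TG. H2-Ke6 read 10.46, 9.09 and 9.31 in WT and 10.26, 9.64 and 9.97 in TG hearts, with WT 1 and TG 1 again highest.

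The recurring order of hearts was counted. Among the 26 class I probes, WT 1 and TG 1 were the 2 highest hearts in 14 (53.8%), and so they were in 6 of the 7 processing probes (85.7%) and in 3 of the 12 class II probes (25.0%). Among all tested probes this held for 11.9%. The order was not particular to these genes, since the cardiomyocyte list also had WT 1 and TG 1 highest and WT 3 lowest (median relative to the WT mean 0.24, -0.07 and -0.26 in WT and 0.52, -0.17 and 0.16 in TG hearts), and the endothelial list had WT 1 (0.26) and TG 1 (0.21) highest. WT 3 was the lowest heart in 14 of the 26 class I probes (53.8%), against 21.5% of all tested probes. The per-heart median of class I relative to the WT mean was 0.55, -0.15 and -0.35 in WT 1 to 3 and 0.20, -0.20 and 0.05 in TG 1 to 3. The median difference of the class I probes, 0.07, was small beside this spread, and it turned to -0.14 without WT 3 and to -0.11 without TG 1. With the kind of array as a block it was -0.02.

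Within the high-slope arrays (WT 1 against TG 2 and TG 3) the class I median was -0.59, and within the unit-slope arrays (WT 2 and WT 3 against TG 1) it was 0.45. For class II, whose per-heart medians were 0.27, -0.17 and -0.10 in WT and -0.04, -0.36 and -0.09 in TG hearts, they were -0.55 and 0.11. Within the shared slide, TG 1 minus WT 2 gave 0.45 for class I and 0.02 for class II. These values rest on 1 heart of a genotype and carry no test, and the kind of array and the single heart cannot be told apart there.

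The difference had opposite signs within the 2 kinds of array in 34 of the 48 member probes (70.8%), and in 69.8% of all tested probes. Within the high-slope and the unit-slope arrays, H2-Q2 differed by -0.87 and 1.01, the H2-D1 probe of higher signal by -0.78 and 1.09, and H2-K1 probe c by -0.46 and 1.13. The first Psmb8 probe differed by -0.81 and 0.58, and the class II chain H2-Eb1 by -1.01 and 0.34. All 7 processing probes were lower in TG hearts within the high-slope arrays and higher within the unit-slope arrays. The B2m probes at chr2:121844230-121844286 (-0.36 and -0.57) and chr2:121844106-121844165 (-0.33 and -0.35) were lower within both, and within the shared slide they differed by -0.74 and 0.06. The third B2m probe differed by -0.26, 0.14 and, within the slide, 0.24.

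Cd1d1 was lower in TG hearts within both kinds of array (-1.53 and -1.42) and within the slide (-1.80). So were H2-Q10 probe 1 (-2.36, -1.36 and -0.89), H2-Q10 probe 2 (-2.10, -0.53 and -0.12), H2-DMb1 (-0.44, -0.63 and -0.54), Cd74 (-0.90, -0.19 and -0.13) and H2-K1 probe a (-0.30, -0.31 and -0.41). These are the 6 probes whose groups did not overlap. Their sign within any set of these hearts was therefore fixed beforehand, and only the sizes could vary. In all, 12 of the 48 member probes (25.0%) were lower within both kinds, against 15.3% of all tested probes, and 2 (4.17%) were higher in both, against 14.9%. The 12 include the 6 probes without overlap by construction, so this count partly restates that one.

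**Figure D3:**
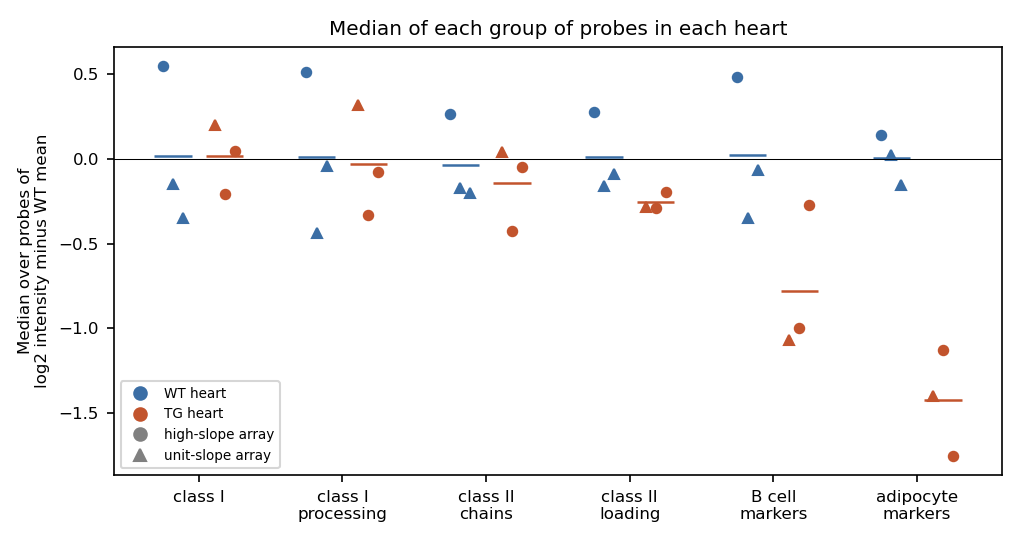
Median over the probes of a group of the log2 intensity minus the WT mean, in each heart, for class I (26 probes), class I processing (7), class II chains (7), class II loading (5), B cell markers (4) and adipocyte markers (9). Lines are means of the 3 hearts. Class I spreads from -0.35 to 0.55 in WT and from -0.20 to 0.20 in TG hearts, and the class II loading genes from -0.16 to 0.28 in WT and from -0.29 to -0.19 in TG hearts.

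Whole hearts contain several cell types, and in such tissue fewer cells of a type and less RNA per cell cannot be told apart. The B cell list (5 genes, 4 probes of 3 genes among the 20000) was lower in TG hearts at 4 of 4 probes, with a median of -0.72 and 2 probes under an unadjusted p of 0.05. Its mean level was 7.23 to 8.03 in WT and 6.58 to 7.41 in TG hearts, and of its defining genes Cd79a was not well above background on any array. The dendritic cell list (6 genes, 4 probes of 3 genes) had a median of -0.23, levels of 6.85 to 7.28 in WT and 6.84 to 6.90 in TG hearts, and Cd209a not above background. The macrophage list (18 probes of 13 genes) had a median of -0.05 and levels of 9.08 to 9.36 in WT and 9.03 to 9.31 in TG hearts. The part of these cells in the class II values was not tested.

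Adipocyte genes were lower in TG hearts at 9 of 9 probes of 6 genes, with a median of -1.43, and 3 of the 9 passed the test. Their mean level was 12.58 to 12.77 in WT and 11.03 to 11.44 in TG hearts, and Lep was well above background on 2 arrays only. Plin1, the lipid droplet coat protein, differed by -2.25 (SE 0.23, adjusted p = 0.034, limma), beside -1.39 for Cd1d1 and -1.81 for H2-Q10 probe 1. The part of adipocytes in the Cd1d1 and H2-Q10 values was not tested. The other lists had medians of 0.00 (T and NK cells, 1 probe), 0.22 (thymus, 3 probes), 0.03 (endothelial, 11 probes), -0.02 (fibroblast, 7 probes) and 0.16 (cardiomyocyte, 11 probes). The median over the 3 probes of the thymus list stood apart in TG 1, with 0.70 relative to the WT mean against 0.04 and -0.24 in TG 2 and TG 3. Of the list, Dntt, the terminal transferase of immature lymphocytes, read 7.42 in TG 1 and 6.11 to 6.58 in the other hearts. Cd8b1 read 7.59 in TG 1 and 6.79 to 7.09 in the other hearts at 1 probe. At its other probe TG 1 (7.72) lay among the WT hearts (7.60 to 8.05), and the difference was -0.22. Ptcra and Rag2 were not well above background on any array. The mean level of the list was 7.0 to 7.06 in WT and 6.91 to 7.57 in TG hearts. TG 1 is the only TG heart in the unit-slope and shared-slide values, and the part of thymic cells in these was not tested.

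The 22 member probes outside the 20000 lay between 5.65 and 6.63 in every heart, and 16 of them were not well above background on any array. They cover 18 genes, 15 of them with no probe in the test. The class II loading gene H2-Oa, a partner in the H2-DM inhibitor H2-O, was well above background on 3 arrays at both of its probes, and H2-Ob on 1 array. H2-M10.2, H2-T24 and a dim H2-DMb2 probe were above background on 1 array each. The class II chain H2-Eb2, the thymus leukemia antigen gene H2-T3, and H2-M1, H2-M9, H2-M11 and the other H2-M10 genes, known from sensory neurons of the vomeronasal organ, were not well above background on any array. Among these probes at background, the groups did not overlap for H2-M10.1 (lower in TG hearts, -0.06), H2-M10.3 (higher, 0.08) and H2-T3 (higher, 0.10). The expression of these genes could not be compared between the genotypes at this signal.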

How the data were processed

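The authors deposited scanner values per spot for each of the 6 arrays, as fluorescence intensity extracted by Agilent Feature Extraction 9.5.1.1 and not normalised between arrays, with probe positions on mm8. A second deposited file holds log2 values, LOWESS-normalised per the methods, with replicate spots merged and dim probes filtered out. It served as an alternative only and held 46 member probes.

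The median signals were taken as log2 values without background subtraction, since the methods name none. Control spots and outlier spots were left out, each array was fitted by loess (span 0.3, 4 iterations) to the per-spot median over the 6 arrays, replicate spots were averaged, and the 20000 probes brightest by their median entered the test. WT and TG hearts, 3 each, were compared with limma 3.58.1 (lmFit and eBayes, R 4.3.3), with Benjamini-Hochberg adjustment over all probes tested and a threshold of 0.05. With 3 against 3 hearts, a two-sided exact permutation test cannot go below 0.1, so none was run. Probe names were updated by RefSeq accession, symbol or synonym, and 1627 of the 20000 tested probes kept the name in the scanner data. SAM was rewritten over all assignments of the hearts and read at an estimated false discovery rate of 0. That rate means a median of 0 calls over the assignments, so single assignments could hold calls. Both tests were run on simulated data with independent noise for each probe. Those data held no order of hearts shared between probes, so the run did not cover it. Alternatives were the processed and the mean signal, normexp (offset 50), quantile or percentile scaling, other probe filters, kept outlier spots, the log2 file, eBayes with trend and robust settings, SAM, the kind of array by its low-gain slope, the slide, and leaving out each heart. Marker and pathway lists were given as counts and medians. Precision was limited by having 6 arrays and by the signal, whose 75th percentile of intensity was 2.08 to 14.1 times background.

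The members and the marker lists were chosen with earlier results of these data known. All members among the 20000 are named; values per heart are given for the largest difference and the brightest probe of each group, for B2m, Cd74, Tap1, Psmb8 and Psmb9, and for probes with an unadjusted p under 0.05. Heart-by-heart values of further H2-K1, H2-Q10 and H2-D1 probes, of Ciita and of Ctss were added after the values were seen.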

Additional observations from a re-analysis of the deposited data

How the results depend on the processing

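The count of member probes called was 0 in the main test, so it could not fall. Alternatives changed the count of all probes called lower in TG hearts (19). The count was 33 with quantile normalisation, 31 with trend and robust eBayes and 54 with SAM. It was 0 when arrays were scaled to the 75th percentile without loess, when all non-control probes or those detected on at least 3 arrays were tested, in the table of the authors and with the kind of array as a block, and it ranged from 0 to 19 when 1 heart was left out (0 without WT 1, WT 3, TG 1 or TG 3, and 8 without TG 2). The count called higher was 0 in all 18 settings run. Member probes called numbered 1 with SAM and from 0 to 1 with 1 heart left out (H2-Q10 probe 1, without WT 2), and 0 in the other settings tested.

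The class I median (0.07) was -0.59 within high-slope arrays, 0.45 within unit-slope arrays and 0.45 within the shared slide, and -0.14 to 0.36 with 1 heart left out. The class II median (-0.22) was -0.55, 0.11 and 0.018 within the same sets, and -0.32 to -0.05 (without WT 1) with 1 heart left out. With the kind of array as a block the medians were -0.02 for class I and -0.26 for class II. The value within the slide was chosen after seeing the data, because a slide correlation could not be estimated from 1 shared slide, so the slide as a random block was not run. Alternatives were run for 23 probes, those the rule gives heart by heart and not those added later. Of their 459 values, 51 had the other sign, none of them for Cd1d1 (-1.80 to -1.19), H2-Q10 probes 1 (-2.44 to -0.89) and 2 (-2.10 to -0.12), Cd74 or H2-DMb1. The groups of these probes did not overlap, so leaving out a heart or taking a set of hearts could not turn their sign. No sign turned either for H2-T10, H2-K1 probe b and the B2m probe at chr2:121844230-121844286, whose groups overlapped. No paired analysis was possible because the replicate numbers were given in accession order and pair no hearts.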
